A study of Mus musculus with 18 samples.

Results

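The 7 genes described here, Rack1, Fau, Dap3, Ptcd3, Chchd1, Aurkaip1 and Gadd45gip1, encode ribosomal proteins but carry symbols that do not begin with Rpl, Rps, Mrpl or Mrps. They were 7 of the 24539 genes listed for each library and were found by exact gene name. The choice was made with their change in ribosome-bound RNA under lycopene known, so that change is given below as a description and is not tested. They were set beside 88 genes named Rpl or Rps, after proteins of the cytosolic ribosome. A further set held 78 genes named Mrpl or Mrps, after proteins of the mitochondrial ribosome. Both sets were taken by symbol, and the product of each gene was not checked.

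The livers came from 9 wild-type male C57BL/6 mice aged 16 weeks, 3 for each diet, which had been fed for 8 weeks either lycopene added to a high-fat diet (HFD+LYC), that fat-rich diet alone (HFD) or normal chow (control). Lycopene is a carotenoid of tomato. Each liver gave 2 poly(A) libraries, 1 of RNA pelleted with ribosome-nascent chain complexes (RNC) through a sucrose cushion and 1 of total RNA (mRNA), so the 18 libraries form 6 groups of 3.

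Cytosolic and mitochondrial ribosomes are built from separate sets of proteins, and both sets are encoded in the nucleus and translated in the cytosol. Cytosolic ribosomes make nearly all proteins of a cell, whereas mitochondrial ribosomes make a few subunits of the respiratory chain and the ATP synthase. Hepatocytes, which secrete most plasma proteins and are rich in mitochondria, carry both in large numbers. Many mRNAs for cytosolic ribosomal proteins begin with a C followed by an unbroken stretch of C and U, the 5′ terminal oligopyrimidine motif, through which mTOR signalling controls their translation.

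Rack1 is a WD-repeat scaffold on the head of the small (40S) subunit, where it binds signalling proteins such as protein kinase C and takes part in the quality control of stalled ribosomes. Fau encodes the small-subunit protein eS30 fused to a ubiquitin-like protein, which is cut off after translation. Dap3, Ptcd3, Chchd1 and Aurkaip1 encode proteins of the small subunit of the mitochondrial ribosome. Dap3 binds GTP, and Ptcd3 is a pentatricopeptide repeat protein. Gadd45gip1, also called Crif1, encodes a protein of the large mitochondrial subunit near the exit of the peptide tunnel.

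Promoter sequences of RefSeq (GRCm38.p6) were at hand for 4 of the 7 genes, and the 30 bases around each start site are shown because Rack1 and Fau share a pyrimidine-rich start while differing in their ribosome-bound RNA. Each runs 5′ to 3′ on the gene's own strand, from 10 bases before the annotated start, and capitals mark the unbroken run of C and T that begins at the start base.
Rack1: gccgctctttCTTTTTCTCCacagggtcgt
Fau: gcccccacttCTTCCTCTTTCTTgactcca
Ptcd3: cgttcccgacgtgctccgcgaagagtccaa
Chchd1: agaggtcaagaggggtcacgcacggcgccg
The windows lie at chr11:48800350-48800379 (plus strand) for Rack1, chr19:6057937-6057966 (plus strand) for Fau, chr6:71908743-71908772 (minus strand) for Ptcd3 and chr14:20703017-20703046 (plus strand) for Chchd1. The start that the promoter table gives for Ptcd3 lies inside the span of the gene given below, so its window does too.

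The run held 10 bases in Rack1 and 13 in Fau, and neither of the mitochondrial genes had a pyrimidine at the start base. A start base C that opens a run of at least 5 pyrimidines, searched at the annotated start on the gene's strand, was found in 673 of 27025 promoters (2.49%), in 14 of 67 Rpl/Rps promoters (20.9%) and in 0 of 69 Mrpl/Mrps promoters, counting the first listed start of each gene. Such a match describes the annotated letters and is no measure of translation.

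In RefSeq GRCm38.p6, Rack1 spans chr11:48800360-48806241 and holds 3 small nucleolar RNA genes, Fau spans chr19:6057947-6059524 and has 2 named pseudogenes, Dap3 spans chr3:88920803-88951213 and overlaps Ash1l, and Ptcd3 spans chr6:71880638-71908773 and overlaps Snord94. Chchd1 spans chr14:20703027-20704425 and overlaps the long non-coding RNA 6230400D17Rik, Aurkaip1 spans chr4:155831269-155833098, and Gadd45gip1 spans chr8:84832282-84835482. No strand setting is stated for the counting, so reads of overlapping genes cannot be told apart. Over the 9 RNC libraries 952 reads were listed for Ash1l and 37 for 6230400D17Rik. Reads of Fau may likewise be shared with its pseudogenes.

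The libraries held 4533729 to 12742436 listed reads, and none of the 18 had 0 reads for any of the 7 genes. The 3 RNC libraries of HFD+LYC differed from the rest: they had reads for 8940 to 10037 genes, against 13324 to 14450 in the HFD RNC libraries, and 70 to 112 genes at a single read, against 614 to 842 in HFD. The mRNA libraries had 189 to 798 genes at a single read, the fewest in HFD+LYC liver 2. The library total behind the deposited RPKM values exceeded the listed reads. The excess was 8.22% to 29.9% of that total in HFD+LYC RNC, 0.841% to 13.8% in HFD RNC and 1.25% to 23.0% in the mRNA libraries. These ranges overlapped, so the excess did not set the HFD+LYC RNC libraries apart, and it was not analysed here. Hepatocyte markers (Alb, Apoa1, Ttr, Serpina1c, Cps1 and Hnf4a) summed to at least 20064 scaled counts (CPM, counts relative to library size) in every library, as the liver label asks. Their sum ranged from 108892 to 411859 CPM in HFD+LYC RNC and from 67452 to 95962 CPM in HFD RNC, and that of 4 cholangiocyte markers from 6.21 to 11.5 CPM in HFD+LYC RNC and from 1.92 to 4.29 CPM in HFD RNC. The summed CPM of 5 stellate-cell markers ranged from 38.1 to 60.8 in HFD+LYC RNC and from 170 to 216 in HFD RNC, and that of 5 sinusoidal endothelial markers from 20.9 to 34.3 in HFD+LYC RNC and from 71.6 to 90.8 in HFD RNC. Kupffer-cell markers (6 genes) summed to 84.5 to 138 CPM in HFD+LYC RNC and 171 to 307 CPM in HFD RNC, and 4 erythroid markers to 284 to 374 CPM in HFD+LYC RNC and 226 to 701 CPM in HFD RNC. Skeletal muscle markers (5 genes) summed to 0 to 8.28 CPM in HFD+LYC RNC and 0.380 to 1.11 CPM in HFD RNC, with Myh4, Ckm and Tnnt3 at 0 reads in both groups. In these bulk libraries fewer cells of a type and less RNA per cell cannot be told apart. The part of these features in the RNC values below was not tested.

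In ribosome-bound RNA, 5 of the 7 genes, Rack1, Dap3, Chchd1, Aurkaip1 and Gadd45gip1, had a change between HFD+LYC and HFD above that of every tested gene named Rpl, Rps, Mrpl or Mrps, while Fau and Ptcd3 lay inside the upper end of those sets. The fitted log2 change in RNC had a median of -0.42 over the 7 genes, of -4.18 over 85 tested Rpl/Rps genes (18.1-fold lower), of -4.96 over 78 Mrpl/Mrps genes (31.0-fold lower) and of -0.29 over all 11660 genes tested. It was below 0 for 4 of the 7 genes, for 85 of 85 Rpl/Rps genes and for 78 of 78 Mrpl/Mrps genes. With the genes that had 0 reads in every HFD+LYC RNC library, 1 Rpl/Rps gene and 10 Mrpl/Mrps genes, set to a bound of 3 reads over the group, the medians were -4.10 for Rpl/Rps and -4.96 for Mrpl/Mrps.

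Levels below are CPM scaled by trimmed-mean (TMM) factors within each kind of library, so they are compared between diets and not between RNC and mRNA. Rack1 stood at 231, 172 and 173 CPM in HFD+LYC RNC, against 173, 141 and 163 CPM in HFD RNC and 194, 193 and 182 CPM in control RNC. The HFD+LYC and HFD values overlapped, and the fitted log2 change of Rack1 was 0.28. Per kilobase of its longest transcript, Rack1 averaged 153 ± 26.9 CPM per kb in HFD+LYC RNC (SD, n = 3), above the level of 88 of the 88 Rpl/Rps genes, whose median was 11.8 CPM per kb. In HFD RNC it averaged 127 ± 12.9 CPM per kb, above 19 of the 88, whose median was 241 CPM per kb.

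Fau, the other cytosolic gene of the 7, had low ribosome-bound RNA in the HFD+LYC livers: 24.6, 26.7 and 30.8 CPM in HFD+LYC RNC, against 165, 139 and 155 CPM in HFD RNC and 207, 206 and 160 CPM in control RNC. All 3 HFD+LYC values lay below every HFD and control value. The fitted log2 change of Fau from HFD was -2.48 (5.59-fold lower), which was above 83 of the 85 Rpl/Rps genes. Rps27a, which encodes a ribosomal protein fused to ubiquitin, had a log2 change of -4.30, near the Rpl/Rps median.

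Dap3 and Ptcd3, both of the mitochondrial small subunit, were also lower in HFD+LYC RNC. Dap3 had 15.7, 25.5 and 11.4 CPM in HFD+LYC RNC, against 31.4, 28.3 and 25.5 CPM in HFD RNC and 30.6, 28.5 and 26.3 CPM in control RNC, with a log2 change of -0.70. The highest HFD+LYC value of Dap3 and the lowest HFD value differed by less than 0.1 CPM. Ptcd3 had 5.17, 7.86 and 13.3 CPM in HFD+LYC RNC, against 26.5, 29.7 and 26.8 CPM in HFD RNC and 24.9, 29.7 and 27.5 CPM in control RNC, with a log2 change of -1.65 (3.13-fold lower). The HFD+LYC and HFD values of Ptcd3 did not overlap, and its change lay above 85 of 85 Rpl/Rps genes and 76 of 78 Mrpl/Mrps genes.

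Chchd1 and Aurkaip1, of the same subunit, overlapped between the diets. Chchd1 had 13.04, 19.2 and 15.4 CPM in HFD+LYC RNC, against 13.2, 22.9 and 27.3 CPM in HFD RNC and 17.5, 22.8 and 20.7 CPM in control RNC, with a log2 change of -0.42. Aurkaip1 had 89.8, 66.9 and 98.8 CPM in HFD+LYC RNC, against 85.6, 67.1 and 75.3 CPM in HFD RNC and 75.3, 84.6 and 81.0 CPM in control RNC, with a log2 change of 0.17. The level of Aurkaip1 per kilobase in HFD+LYC RNC, 70.5 ± 13.6 CPM per kb (SD, n = 3), was above all 78 Mrpl/Mrps genes, and in HFD RNC, at 62.9 ± 7.65 CPM per kb, it was above 67 of them.

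Gadd45gip1, of the mitochondrial large subunit, was the gene of the 7 with the highest change. It stood at 125, 161 and 187 CPM in HFD+LYC RNC, against 84.0, 40.2 and 53.2 CPM in HFD RNC and 79.4, 62.6 and 58.5 CPM in control RNC. Every HFD+LYC value was above every HFD and control value, and the log2 change from HFD was 1.42 (2.67-fold higher). Its mean level per kilobase was 90.9 ± 17.7 CPM per kb in HFD+LYC RNC and 34.1 ± 12.97 CPM per kb in HFD RNC (SD, n = 3 each). Without HFD liver 1, the highest of its group, the log2 change of Gadd45gip1 was 1.74.

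**Figure D1:**
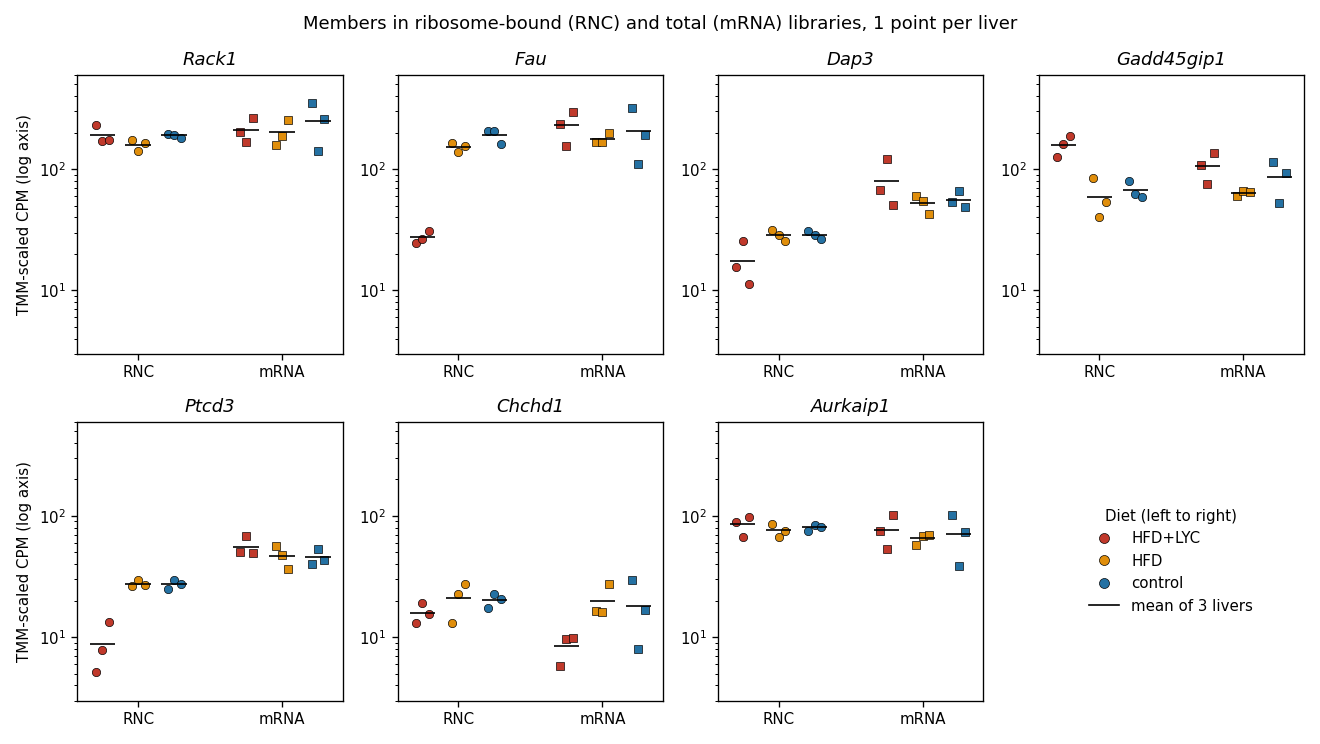
TMM-scaled CPM (log axis) of the 7 genes in RNC libraries (circles) and mRNA libraries (squares), with 1 point per liver, the diets HFD+LYC, HFD and control from left to right, and a line at the mean of 3 livers. In RNC, Fau and Ptcd3 lie lower in all 3 HFD+LYC livers than in the HFD livers and Gadd45gip1 lies higher, while Rack1, Chchd1 and Aurkaip1 overlap.

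The 3 HFD+LYC RNC values lay below all 3 HFD values for Fau, Dap3 and Ptcd3 and above them for Gadd45gip1. Over all 11660 genes tested, 28.1% had all HFD+LYC values below and 13.3% had all above, and an adjusted p under 0.05 (edgeR's quasi-likelihood test) was found for 26.8%. Of the Rpl/Rps genes 84 of 85, and of the Mrpl/Mrps genes 77 of 78, had all HFD+LYC values below. Nothing is read from these shares about the 7 genes, since the change chose them.

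The edges of the named sets were close to Fau and Ptcd3. Among genes with at least 10 CPM on average, Rpl36 had the highest RNC change of the Rpl/Rps set, a log2 value of -2.25, and Mrpl38 the highest of the Mrpl/Mrps set, at -1.76. The lowest of the Rpl/Rps set was Rps27l at -5.74. Mrps33, the lowest of the Mrpl/Mrps set, had 0 reads in each of the 3 HFD+LYC RNC libraries and 389, 967 and 1024 reads in the HFD RNC libraries, a level at least 378-fold lower when 3 reads over the group are taken as the floor. By contrast, the fewest reads of any of the 7 genes in an HFD+LYC RNC library were the 25 of Ptcd3.

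**Figure D2:**
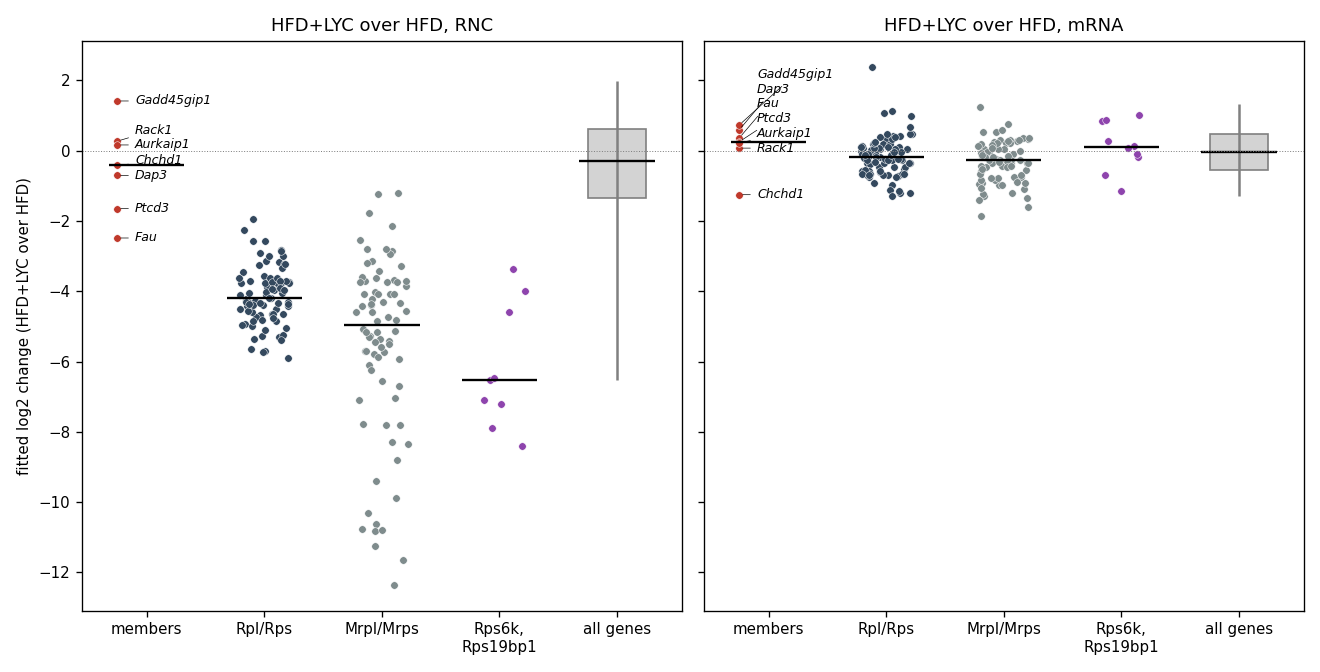
Fitted log2 change of HFD+LYC over HFD in RNC (left) and mRNA (right). The groups are the 7 genes ("members", named), genes named Rpl or Rps, genes named Mrpl or Mrps, genes named Rps6k with Rps19bp1, and all genes tested. Each point is a gene, black lines are medians, and the grey box and line span the middle 50% and 90% of all genes. In RNC the 7 genes lie between -2.48 and 1.42, against medians of -4.18 and -4.96 in the named sets, and in mRNA all groups lie near 0; values of genes with 0 reads in HFD+LYC RNC are fitted and depend on the prior count.

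The scaling decides the sign of 2 of these changes. With plain library sizes in place of TMM factors, a choice made after seeing the data, the median over all genes was -0.87 in place of -0.29, and the log2 changes were -0.37 for Rack1, -0.47 for Aurkaip1, 0.90 for Gadd45gip1, -3.05 for Fau, -1.19 for Dap3, -2.18 for Ptcd3 and -0.94 for Chchd1. Relative to that median, Rack1 stood at 0.50, against 0.57 with TMM, and Aurkaip1 at 0.40, against 0.46. Of the genes called over the whole table, 1089 were higher and 2031 lower with TMM, and 324 were higher and 2347 lower with plain library sizes.

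**Figure D3:**
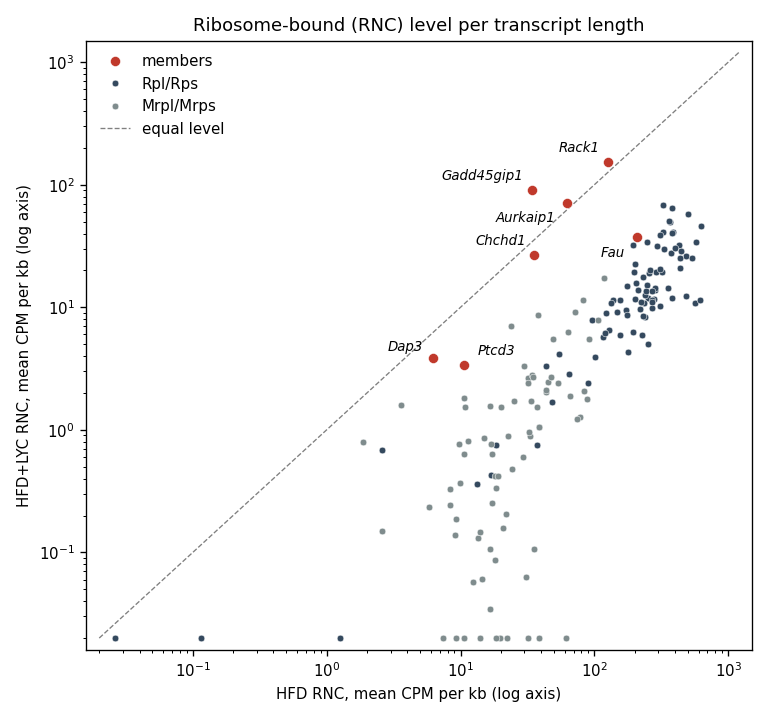
Mean CPM per kb of the longest transcript in HFD+LYC RNC (vertical, log axis) against HFD RNC (horizontal, log axis); each point is a gene, the dashed line marks equal levels, and genes with no reads in HFD+LYC RNC are drawn at the lower edge. Rack1, Chchd1, Aurkaip1 and Gadd45gip1 lie near or above the line, at 26.7 to 153 CPM per kb in HFD+LYC RNC, and the genes named Rpl, Rps, Mrpl or Mrps lie below it.

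The same libraries were searched for other genes whose symbols begin with Rps but which encode no ribosomal protein, a choice made after their values were seen. Genes with symbols that begin with Rps6k carry the name of the S6 kinases, and only some of their products phosphorylate ribosomal protein S6. The 8 of them that were tested in RNC had 0 to 16 reads summed over the HFD+LYC RNC libraries, against 37 to 569 reads summed over the HFD RNC libraries, and 4 of the 8 had none in HFD+LYC. Rps19bp1, which encodes a protein that binds ribosomal protein S19, had 13 reads in all in HFD+LYC RNC, against 644 in HFD RNC. In mRNA the fitted log2 changes of these 9 genes ran from -0.70 to 1.02. Reads were listed for 8940 to 10037 genes in the HFD+LYC RNC libraries, against 13324 to 14450 in the HFD RNC libraries. How many other genes with as few HFD RNC reads fell to such levels was not determined. Whether the low counts of the 8 Rps6k genes go with their symbols was therefore not tested.

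Genes were then grouped by the first 3 letters of their symbols, also after the values were seen, among the 4135 genes with a mean of at least 200 reads in HFD RNC. A log2 RNC change of -3 or lower, which is at least 8-fold, was found for 30 of 33 genes beginning Rps, 45 of 50 beginning Rpl and 57 of 63 beginning Mrp, all 63 of which were named Mrpl or Mrps. The next group was Akr, with 2 of 10 genes, and 36 of the 50 groups of at least 10 genes had none. Over all 4135 genes the share was 4.81%, and 131 of these 199 genes were of the Rpl, Rps, Mrpl or Mrps sets. None of the 7 genes reached that change with TMM scaling, whereas Fau, at -3.05, passed it with plain library sizes. Why the change follows the symbols was not tested.

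Among the other genes of the 2 systems the spread in RNC was wide. Of 35 assembly and translation factors of the mitochondrial ribosome, 7 had a log2 change between HFD+LYC and HFD above 0 and 28 below 0, with a median of -0.70, which was also -0.70 with 3 genes at 0 reads in HFD+LYC RNC set to the bound. Of 16 partners of Rack1 and factors of ribosome quality control, 5 were above 0 and 11 below, with a median of -0.39. Both medians were nearer to the -0.29 of all genes than to those of the named ribosomal protein sets.

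In total RNA, the same comparison was tested, since the choice of the genes did not use it. None of the 7 genes passed the threshold (adjusted p under 0.05, edgeR's quasi-likelihood test with Benjamini-Hochberg adjustment over 12664 genes), where 2.91% of all genes did, and 1 of the 7 had an unadjusted p under 0.05. The median log2 change was 0.26 over the 7 genes, -0.19 over Rpl/Rps, -0.27 over Mrpl/Mrps and -0.04 over all genes, so the sets lay close together in mRNA. DESeq2 called none of the 7 genes, and 1491 genes in all, against 368 by edgeR. The edgeR count fell when a liver was left out. It was 66 to 104 without any 1 of HFD livers 1, 2 and 3 or HFD+LYC livers 1 and 2. Without HFD+LYC liver 3 it was 307. Leaving out a liver also leaves fewer to test, so these counts do not show dependence on particular livers.

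Chchd1 had the largest mRNA change of the 7, at 5.75, 9.64 and 9.75 CPM in HFD+LYC mRNA, against 16.4, 16.2 and 27.4 CPM in HFD mRNA and 29.8, 7.99 and 16.9 CPM in control mRNA. All 3 HFD+LYC values were below all 3 HFD values, which held for 15.2% of all genes, and the log2 change was -1.25 ± 0.44 (SE, edgeR adjusted p = 0.123, 0.0661 to 0.348 over the alternatives). Gadd45gip1 had 108, 75.2 and 135 CPM in HFD+LYC mRNA, against 60.1, 65.9 and 64.7 CPM in HFD mRNA and 115, 52.8 and 92.5 CPM in control mRNA. All of its HFD+LYC values were above the HFD values, as for 16.7% of all genes, with a log2 change of 0.74 ± 0.34 (SE, edgeR adjusted p = 0.212, 0.151 to 0.385 over the alternatives).

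The mRNA of Fau, whose ribosome-bound level was low under lycopene, stood at 237, 156 and 295 CPM in HFD+LYC mRNA, against 167, 168 and 199 CPM in HFD mRNA and 319, 110 and 190 CPM in control mRNA. These groups overlapped, and the log2 change of 0.37 ± 0.41 (SE) had an edgeR adjusted p of 0.592, which was 0.483 to 0.857 over the alternatives. Ptcd3 had 50.9, 67.8 and 49.1 CPM in HFD+LYC mRNA, against 56.3, 47.2 and 36.7 CPM in HFD mRNA and 39.9, 53.7 and 43.4 CPM in control mRNA. Its groups also overlapped, with a log2 change of 0.26 ± 0.27 (SE, edgeR adjusted p = 0.571, 0.408 to 0.879 over the alternatives).

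Dap3 had 66.8, 121 and 50.5 CPM in HFD+LYC mRNA, against 60.0, 54.6 and 42.3 CPM in HFD mRNA and 53.4, 66.0 and 48.6 CPM in control mRNA, with a log2 change of 0.60 ± 0.34 (SE, edgeR adjusted p = 0.295, 0.161 to 0.791 over the alternatives). The high value came from liver 2, without which the fitted change is at the low end of its range, 0.16. Rack1 had 202, 168 and 266 CPM in HFD+LYC mRNA, against 159, 188 and 256 CPM in HFD mRNA and 351, 142 and 262 CPM in control mRNA, with a log2 change of 0.08 ± 0.39 (SE, edgeR adjusted p = 0.915, 0.775 to 0.979 over the alternatives). Its values overlapped in all 3 diets. Aurkaip1 had 74.6, 53.2 and 102 CPM in HFD+LYC mRNA, against 58.1, 68.3 and 69.9 CPM in HFD mRNA and 101, 39.0 and 73.0 CPM in control mRNA, with a log2 change of 0.22 ± 0.37 (SE, edgeR adjusted p = 0.720, 0.577 to 0.963 over the alternatives). Control liver 2 was the lowest of its group in mRNA for Rack1, Fau, Gadd45gip1, Chchd1 and Aurkaip1.

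Of the 35 assembly and translation factors of the mitochondrial ribosome, 0 passed the threshold in mRNA and 8 had an unadjusted p under 0.05. Those of smallest p were Gfm1, a mitochondrial elongation factor, and Ptcd1, a pentatricopeptide repeat protein of mitochondrial RNA metabolism. Gfm1 averaged 14.8 ± 5.36 CPM in HFD+LYC mRNA and 47.4 ± 32.1 CPM in HFD mRNA (SD, n = 3 each), a log2 change of -1.68 with an edgeR adjusted p of 0.0826. Ptcd1 averaged 33.1 ± 2.67 CPM in HFD+LYC mRNA and 21.1 ± 3.74 CPM in HFD mRNA (SD, n = 3 each), a log2 change of 0.65 with an edgeR adjusted p of 0.132. Of 16 partners of Rack1 and factors of ribosome quality control, 0 passed and 8 had an unadjusted p under 0.05. Over all 12664 genes tested in mRNA, 3078 had an unadjusted p under 0.05.

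The ribosome-bound RNA of the 7 genes was also set against the mRNA of the same liver, with all 18 libraries scaled together, again as a description. The log2 ratio of RNC to mRNA CPM of Fau was -2.35, -1.64 and -2.35 in the HFD+LYC livers, against 0.97, 0.70 and 0.59 in the HFD livers and 0.32, 1.89 and 0.69 in the control livers. That of Ptcd3 was -2.31, -2.16 and -0.97 in HFD+LYC, against -0.10, 0.30 and 0.48 in HFD and 0.26, 0.13 and 0.27 in control. That of Dap3 was -1.16, -1.33 and -1.22 in HFD+LYC, against 0.05, 0.02 and 0.22 in HFD and 0.14, -0.22 and 0.05 in control. For these 3 genes the RNC share was lower in every HFD+LYC liver than in any other liver.

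The ratio of Chchd1, whose mRNA was low and whose RNC overlapped, was 1.96, 1.81 and 1.49 in HFD+LYC, against 0.64, 1.43 and 0.93 in HFD. The log2 ratio of Rack1 was 1.10, 0.93 and 0.28 in HFD+LYC, against 1.10, 0.55 and 0.30 in HFD. Aurkaip1 had 1.17, 1.21 and 0.85 in HFD+LYC, against 1.53, 0.94 and 1.05 in HFD, and Gadd45gip1 had 1.12, 1.98 and 1.36 in HFD+LYC, against 1.46, 0.26 and 0.66 in HFD. Only for Chchd1 of these 4 did every HFD+LYC liver lie above every HFD liver, by a narrow margin (1.49 against 1.43). The control livers of Chchd1, at 0.17, 2.40 and 1.20, lay on both sides of its HFD+LYC values.

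The fitted log2 change in the ratio between HFD+LYC and HFD was -2.92 for Fau, -1.97 for Ptcd3, -1.37 for Dap3, -0.13 for Aurkaip1, 0.13 for Rack1, 0.61 for Gadd45gip1 and 0.77 for Chchd1. Its median was -0.13 over the 7 genes, -3.98 over Rpl/Rps, -4.55 over Mrpl/Mrps and -0.41 over all 12872 genes, and -3.98 and -4.55 in the named sets with the bound. With plain library sizes the change of Rack1 was -0.52, and with DESeq2's size factors that of Aurkaip1 was 0.01, so the signs of these 2 depend on the scaling. Over all genes 24.6% had all HFD+LYC ratios below the HFD ratios, 8.03% had all above, and 16.4% passed the threshold.

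**Figure D4:**
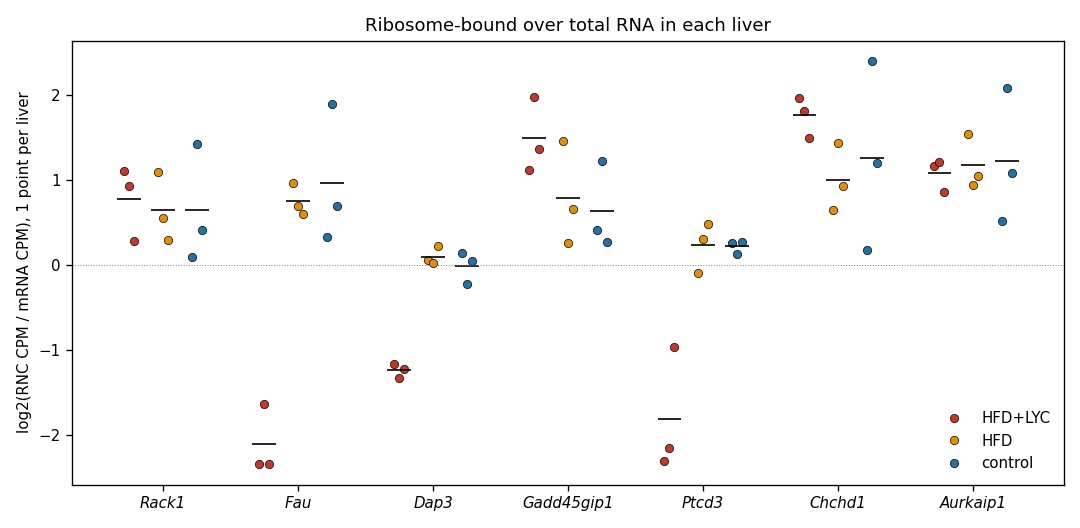
Log2 ratio of RNC CPM to mRNA CPM for the 7 genes, with 1 point per liver, the diets HFD+LYC, HFD and control from left to right within each gene, and a line at the mean of 3 livers. Fau, Ptcd3 and Dap3 lie between -2.35 and -0.97 in the HFD+LYC livers, below every HFD and control liver, while Rack1 and Aurkaip1 overlap between HFD+LYC and HFD.

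In the chow-fed livers, ribosome-bound and total RNA were compared between libraries of the same livers, which the main fit did not pair. None of the 7 genes passed the threshold, where 2.13% of all genes did (2 higher and 272 lower in RNC). An unadjusted p under 0.05 was found for 3 of the 7 and for 3512 of all 12872 genes. With the liver as a replicate block, 2 genes of the whole table passed, and without control liver 1 the count was 13, without liver 2 it was 0 and without liver 3 it was 0. The fitted log2 change of RNC over mRNA had a median of 0.57 over the 7 genes, 0.94 over Rpl/Rps, 0.96 over Mrpl/Mrps and -0.07 over all genes.

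Aurkaip1 had log2 ratios of 0.52, 2.08 and 1.08 in the 3 control livers and a fitted change of 1.12 ± 0.33 (SE, edgeR adjusted p = 0.0658). DESeq2 gave Aurkaip1 an adjusted p of 0.0109, and edgeR on the control libraries alone gave 0.0319, while leaving out a liver gave 0.0731 to 0.800. Chchd1 had ratios of 0.17, 2.40 and 1.20 and a fitted change of 1.11 ± 0.42 (SE, edgeR adjusted p = 0.116, 0.0508 to 0.806 over the alternatives). On the common scaling of all 18 libraries, which differs from that of the CPM given above, both genes and Rack1 had all 3 RNC values above all 3 mRNA values, as did 25.2% of all genes.

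Fau and Rack1, the cytosolic pair, had fitted RNC over mRNA changes of 0.84 ± 0.34 (SE, edgeR adjusted p = 0.132) and 0.54 ± 0.33 (SE, edgeR adjusted p = 0.289), with 0.0756 to 0.820 and 0.167 to 0.915 over the alternatives. Gadd45gip1 had 0.57 ± 0.34 (SE, edgeR adjusted p = 0.281), Ptcd3 0.22 ± 0.30 (SE, edgeR adjusted p = 0.666) and Dap3 -0.02 ± 0.32 (SE, edgeR adjusted p = 0.979). With plain library sizes, which move the median of all genes to -0.80, the sign turned for Rack1 (-0.12), Gadd45gip1 (-0.09) and Ptcd3 (-0.55). Control liver 2 had the highest ratio of its group for Rack1, Fau, Gadd45gip1, Chchd1 and Aurkaip1, the genes whose mRNA was lowest there.

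The high-fat diet alone moved none of the 7 genes past the threshold. Against control, their log2 changes in HFD ran from -0.45 to 0.13 in mRNA, from -0.32 to 0.06 in RNC and from -0.09 to 0.29 in the ratio. The shares of all genes that passed were 0.0158% in mRNA, 0.00858% in RNC and 0% in the ratio, with 358, 214 and 20 genes at an unadjusted p under 0.05, and DESeq2 called 41, 33 and 1 genes. In mRNA 3.46% of all genes had all HFD values below and 3.76% all above the control values, and in the ratio 2.13% and 2.86%, and none of the 7 genes did in either. Rack1 was the one of the 7 whose HFD RNC values, 173, 141 and 163 CPM, were all below the control values, as for 7.2% of all genes, while 6.97% had all HFD values above. The Rpl/Rps set had a median RNC change of -0.30 between HFD and control, and 82 of its 85 genes were below 0.

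The genes whose pattern was most like that of each of the 7 were found by the root mean square (RMS) difference of log2 CPM, centred on each gene's mean, over the 18 libraries. The profiles share libraries and depth, and they include the HFD+LYC RNC values that chose the genes, so the distances partly restate that change and carry no test. Nearest to Fau were Mrpl14, Rps29 and Rps15, with RMS differences of 0.26, 0.26 and 0.28. Nearest to Rack1 were Ube2s, Dap and Rtn3, at 0.16, 0.21 and 0.22, and its nearest Rpl/Rps gene, Rpl8, came 7202nd of 12871 genes.

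No Mrpl or Mrps gene was among the 3 nearest to any of the mitochondrial genes. Pbld2, Copa and Atp2c1 were nearest to Dap3 (RMS differences of 0.21 to 0.26), and Coq3, Polr1c and Chuk to Ptcd3 (0.21 to 0.28). Washc3, Psmb1 and Iah1 were nearest to Chchd1 (0.29 each), Serf2, Phb and Lamtor4 to Aurkaip1 (0.16 to 0.21), and Uqcc3, Arf5 and Znhit2 to Gadd45gip1 (0.21 to 0.22). Among the 7 themselves, Rack1 and Aurkaip1 were nearest to each other, at 0.30. The nearest Mrpl/Mrps gene was Mrpl19 for Dap3, at rank 200, for Ptcd3, at rank 869, and for Gadd45gip1, at rank 6660. It was Mrps15 for Chchd1, at rank 3860, and for Aurkaip1, at rank 5258. For Ptcd3 an Rpl/Rps gene was nearer, Rps27 at rank 320, which had 0 reads in every HFD+LYC RNC library.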

How the data were processed

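Poly(A) RNA of 18 libraries was sequenced, and per the file headers each file gives a read count and the longest transcript length for 24539 genes. The deposited read counts are whole numbers summed over splice variants of a gene and mapped by the authors to RefSeq RNA, per the labels. The submitters' processing notes name bcl2fastq and the build mm10. No aligner, counting program or strand setting is named there. The transcript length in bases, as deposited, served only for levels per kilobase.

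Genes were filtered with filterByExpr (minimum count 10, minimum total 15), scaled with TMM and fitted with edgeR 4.0.16 (robust quasi-likelihood, R 4.3.3), for 12664 genes in the 9 mRNA libraries, 11660 in the 9 RNC libraries and 12872 in all 18, where the difference between diets in RNC over mRNA was an interaction. All 7 genes passed each filter. Tests were two-sided, with Benjamini-Hochberg adjusted p under 0.05 as the threshold. The libraries' sums of listed reads, 4533729 to 12742436, were the library sizes, so 3 reads stood for 0.235 to 0.662 CPM in 1 library, a floor that covers counting error only. Log2 ratios per liver used a pseudocount of 0.5 CPM. The script's recovery of known changes was tested on simulated data.

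The mRNA and RNC libraries of a diet and number carry 1 animal code and were taken as 1 liver. The main fit of all 18 libraries did not block them by liver. Over these 9 pairs, the correlation of deviations from group means ran from -0.042 to 0.561, and 3 were over 0.1. Livers of a diet were taken as separate animals, as the design text states biological replicates.

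The 7 genes and the lists were chosen with earlier results of these data known. Named beside them were the highest and lowest genes of each ribosomal protein set with at least 10 CPM on average, Rps27a, the 2 mitochondrial factors of smallest p, and the 3 nearest genes of each. Alternatives were DESeq2 1.42.0 as a test and its size factors, no filter, only the compared libraries, a replicate block, each replicate left out, and plain library sizes (added after seeing the data). Promoters and coordinates came from RefSeq GRCm38.p6. Some items the naming rule covers are not reported here.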

Additional observations from a re-analysis of the deposited data

How the results depend on the processing

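Of the 7 genes, only Aurkaip1 in RNC over mRNA of control livers changed its side of the threshold, with DESeq2 and with the compared libraries only. Counts over all genes moved more. HFD over control in mRNA gave 2 genes, against 6 without a filter, 41 with DESeq2, 1 with compared libraries only, 1 with plain library sizes and 1 to 3 without a replicate (1 without any control liver). In RNC it gave 1, against 33 with DESeq2, 32 with compared libraries only, and 0 (without control liver 3) to 2 (without HFD liver 1); the ratio gave 0, against 1 with DESeq2. HFD+LYC over HFD in mRNA gave 368, against 1491 with DESeq2, 1457 with a replicate block, 135 with plain library sizes and 66 to 307 without a replicate. In RNC it gave 3120, against 1790 with compared libraries only, and in the ratio 2116, against 1289 (without HFD liver 3) to 2931. RNC over mRNA in control gave 274, against 525 with DESeq2's size factors, 2181 with DESeq2, 3882 with compared libraries only, 2 with the replicate block, 2024 with plain library sizes and 0 to 13 without a replicate.

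The median over the 7 genes with plain library sizes was -0.039 for HFD over control in mRNA, -0.94 and -0.73 for HFD+LYC over HFD in RNC and the ratio, and -0.093 for RNC over mRNA. Leaving out a replicate gave -0.41 to -0.0025 for HFD over control in mRNA, -0.25 to 0.39 for that ratio, and -0.63 to -0.20 for HFD+LYC over HFD in RNC. For RNC over mRNA in control, plain library sizes turned Rack1 (-0.12), Gadd45gip1 (-0.093) and Ptcd3 (-0.55). The value of Dap3 there was 0.015 with no filter and -0.076 to 0.098 without a replicate. In mRNA, HFD+LYC over HFD, leaving out a replicate gave Rack1 -0.12 to 0.28 and Aurkaip1 -0.036 to 0.43. The causes were not tested.

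Across diets the replicate numbers name no shared animal. Same-numbered mRNA or RNC libraries of 2 diets had correlated deviations of -0.451 to 0.494, with 9 of 18 over 0.1; the block changed no call of the 7 genes. With 3 livers per group, a change within the spread shown was not detectable at this depth and number.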
